A study of Homo sapiens with 4 samples.

Results

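Peaks of a chromatin immunoprecipitation were described at 10 genes of glycolysis, HK2, GPI, PFKP, ALDOA, TPI1, GAPDH, PGK1, ENO1, PKM and LDHA, of 19974 protein-coding genes on chromosomes 1 to 22 and X. The genes were chosen on results from these same peak lists, above all the enrichment at PGK1, and the values below are therefore a description with no test. The cells were an untreated subclone of MDA-MB-231, an established triple-negative breast cancer line labelled wild type, and the precipitating antibody was directed against the HA tag. PD-L1, a ligand of the T-cell receptor PD-1, is the protein named in the labels. There were 2 ChIP samples and 2 input samples, paired by number, and each pair gave 1 list of broad peaks. The sources used here do not state how the HA tag entered the cells, and no precipitation from untagged cells was analysed here, so recovery of chromatin without the target cannot be told apart from binding of the protein. The fold and q values are the authors', 1 per peak, with a median fold of 3.14 in replicate 1 and 2.27 in replicate 2, so folds are compared within a list. Most peaks were weak, with a median −log10 q of 1.91 and 1.80 against a lowest value of 1.30 in both lists. Library depth is unknown. Peak names of the second list contain the word Merge, so that its independence from replicate 1 is not known.

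Glycolysis converts glucose to pyruvate in the cytosol and yields ATP without oxygen. Its enzymes are made in nearly all cells, and many of their genes are raised by the hypoxia-inducible factor HIF1 and by growth signals, which makes high glycolysis a hallmark of many tumours. PGK1 stands apart among them in being carried on the X chromosome, and its promoter, a GC-rich start region without a TATA box, is in common use to drive genes in expression vectors.

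The start regions of 4 genes show the range of what was found. In the PGK1 window a peak of both lists lay over the sequence. In the window of the second listed start of LDHA a peak of both lists lay over it too. The ENO1 window lay under a peak of replicate 1 alone, and the GPI window under no peak. The sequences are those of RefSeq (GRCh38.p14, the build called hg38), 250 bases before to 50 after a start, in the direction of transcription. Capitals mark matches on either strand to ACGTG, the core of the hypoxia response element, to GGGCGG, the GC box, and to CCAAT.
PGK1 start, chrX:78103998-78104297, plus strand: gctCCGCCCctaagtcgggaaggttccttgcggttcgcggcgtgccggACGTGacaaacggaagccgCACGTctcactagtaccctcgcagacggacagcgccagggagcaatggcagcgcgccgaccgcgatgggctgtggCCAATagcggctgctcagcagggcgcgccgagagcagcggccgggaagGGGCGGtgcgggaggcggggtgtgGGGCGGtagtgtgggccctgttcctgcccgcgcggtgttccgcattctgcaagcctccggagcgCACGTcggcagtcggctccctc
LDHA second start, chr11:18396101-18396400, plus strand: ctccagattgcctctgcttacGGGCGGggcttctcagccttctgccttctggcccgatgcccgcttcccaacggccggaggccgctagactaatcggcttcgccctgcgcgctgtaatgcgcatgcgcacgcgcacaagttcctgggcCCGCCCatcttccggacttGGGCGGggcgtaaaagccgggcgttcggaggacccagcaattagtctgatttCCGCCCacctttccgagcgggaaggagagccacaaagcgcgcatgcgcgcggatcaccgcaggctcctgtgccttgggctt
ENO1 start, chr1:8878637-8878936, minus strand: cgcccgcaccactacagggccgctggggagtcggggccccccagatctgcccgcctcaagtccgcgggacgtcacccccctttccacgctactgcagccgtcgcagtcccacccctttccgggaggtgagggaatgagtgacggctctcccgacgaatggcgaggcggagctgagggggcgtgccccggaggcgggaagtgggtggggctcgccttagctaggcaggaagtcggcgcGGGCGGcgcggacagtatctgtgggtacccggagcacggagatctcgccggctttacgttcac
GPI start, chr19:34364742-34365041, plus strand: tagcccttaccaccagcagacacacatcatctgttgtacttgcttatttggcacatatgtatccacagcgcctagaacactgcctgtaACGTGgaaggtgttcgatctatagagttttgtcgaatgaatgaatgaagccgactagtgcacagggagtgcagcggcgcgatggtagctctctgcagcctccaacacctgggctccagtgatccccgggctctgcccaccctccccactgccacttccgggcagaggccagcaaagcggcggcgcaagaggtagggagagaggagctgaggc

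The PGK1 window held 3 matches to ACGTG, 3 to GGGCGG and 1 to CCAAT. Counted from the start, the ACGTG matches began at -202, -183 and 29, the GC boxes at -247, -60 and -36, and the CCAAT match at -108. Its GC content was 70.7%, with 38 CpG pairs. Other glycolytic genes came close to or above these values: HK2 also had 38 CpG pairs at its first start and 74.3% GC, and LDHA held 5 matches to ACGTG at its first start, counted on both strands, including a pair of CACGTG E-boxes. All 10 genes matched a promoter window in the table, with 18 windows in all. The motif ACGTG was in 11 of the 18 (61.1%), against 23.1% of 22132 windows of protein-coding genes, and CACGTG, which contains it, in 4 (22.2%, against 8.34%). GGGCGG was in 12 windows (66.7%, against 56.3%), CCAAT in 4 (22.2%, against 34.6%) and TATAAA in none (against 9.46%). Median GC content was 70.3% in the 18 windows and 62.3% in all. The windows of a gene can overlap or share a peak, and a match of letters is no evidence of a bound factor.

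Peaks were present near every one of the 10 genes in both lists. A gene counted as having a peak where one overlapped its span plus 10 kb on each side. This held for 10 of 10 genes in replicate 1, against 83.2% of all protein-coding genes, and for 10 of 10 in replicate 2, against 74.5%, so that presence alone hardly sets these genes apart. Both lists held a peak at 71.7% of all genes. A shared region, the union of overlapping peaks with at least 1 peak of each replicate, was found at 9 of the 10 genes, ENO1 being the exception, against 59.5% of all genes. Such a region touched the gene span itself at 8 genes (without ALDOA and ENO1), against 48.9%. In TPI1 and GAPDH, however, only replicate 1 peaks reached the span. A peak of replicate 2 lay in the span of 6 genes, against 60.4%. The 10 windows held 88 peaks in replicate 1 and 36 in replicate 2. Of these, 28 in replicate 1 (31.8%) and 28 in replicate 2 (77.8%) belonged to a shared region, and in the whole lists the shares were 28.7% and 52.0%. Peaks of replicate 1 were dense in these windows, with a median of 2.03 per 10 kb against 0.810 for all genes. An overlap of 1 bp was enough, so the share in replicate 2 depends on that density.

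**Figure D1:**
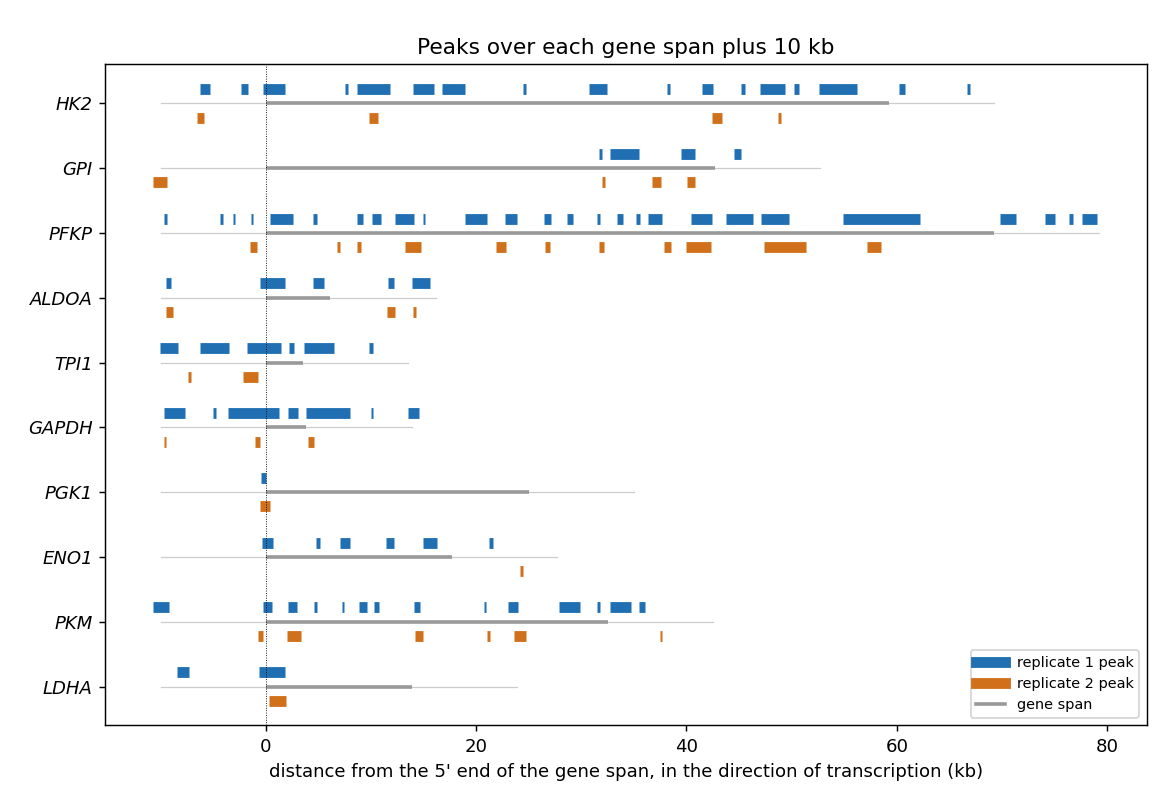
Positions of the peaks of replicate 1 (blue, above each line) and replicate 2 (orange, below) at the 10 glycolytic genes; the x axis is the distance in kb from the 5' end of the gene span in the direction of transcription, the thick grey line is the gene span and the thin line the 10 kb on each side. PGK1 has 1 peak in each list, both at its start, while PFKP has 26 and 11.

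By place, the start regions of the other genes were covered mostly in replicate 1. A start was counted where a peak came within 1 kb of a listed start site, which was so for 9 of 10 genes in replicate 1 (all but GPI). It was so for 5 in replicate 2 (PFKP, TPI1, PGK1, PKM and LDHA) and for 5 with a shared region (TPI1, GAPDH, PGK1, PKM and LDHA). Over the 15812 protein-coding genes with a listed start, the shares were 68%, 29.8% and 26.8%. At GAPDH the region came that near, but its replicate 2 peak did not. At PFKP the start peak of replicate 2 was in no shared region. The 300-base windows themselves were touched by a peak of replicate 1 in 17 of 18 cases, against 49.9%, by one of replicate 2 in 2 of 18, against 13.2%, and by a shared region in 7, against 20.2%. The 2 windows with a peak of replicate 2 were those of PGK1 and of the second start of LDHA. In TPI1, PKM and PFKP the peak of replicate 2 counted at the start covered no listed start site. Within 1 kb of either end of the gene span, 9 genes had a peak in replicate 1 (all but GPI; all genes, 68.8%), 6 in replicate 2 (all genes, 37.1%) and the same 6, namely PFKP, TPI1, GAPDH, PGK1, PKM and LDHA, a shared region (all genes, 32.9%). The last count fell to 2 genes, TPI1 and PGK1, where a −log10 q of 2 or more was required (all genes, 7.55%), and to PGK1 alone among the 50% of peaks with the higher fold (all genes, 7.65%). Inside the gene bodies away from the ends lay 44 peaks of replicate 1 and 19 of replicate 2, none of them in PGK1.

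The first steps of the pathway had peaks along the gene body. HK2, which phosphorylates glucose and so keeps it in the cell (2:74834127-74893359), had 17 peaks in replicate 1 and 4 in replicate 2. Their highest fold enrichment over the peak caller's background was 3.27 in replicate 1 and 2.17 in replicate 2. A peak of replicate 1 covered both HK2 starts at a fold of 2.90, and no peak of replicate 2 came near them. All 4 peaks of replicate 2 lay in shared regions, 3 in the body and 1 upstream. GPI, which turns glucose 6-phosphate into fructose 6-phosphate (19:34359718-34402413), was the one gene with no start peak in either list. It had 4 peaks in each list, with a highest fold of 3.80 and 2.45, and in each list 3 of them were in the body; the 3 lay between 31668 and 40797 bases from the 5' end of the span. One GPI region stood at the edge of the window: the peak of replicate 2 upstream reached inside 10 kb, and the peak of replicate 1 that it overlapped ended 10246 bases from the span, inside GARRE1.

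PFKP, the platelet form of the kinase of the committed step (10:3067548-3136805), had more shared regions than any other of the 10 genes, in the longest window (89.3 kb). It had 26 peaks in replicate 1 and 11 in replicate 2, and 9 shared regions, 8 of them in the body. Per 10 kb of window these were 2.91 and 1.23 peaks, near the 2.93 and 1.26 of GAPDH. Peaks covered 40.1% of the PFKP span in replicate 1 and 18.1% in replicate 2. The widest, of 7337 bp in replicate 1, lay 54846 bases from the 5' end, and the highest fold was 4.12 in replicate 1 and 2.62 in replicate 2. A peak of replicate 1 covered 3 of the 4 listed PFKP starts at a fold of 2.95, with no peak of replicate 2 over it.

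The genes of the middle steps were short, and several of their peaks also touched neighbours. ALDOA, the aldolase of muscle and most other cells (16:30064279-30070420), had 5 and 3 peaks in replicates 1 and 2. A peak of 2363 bp in replicate 1 covered all 3 listed ALDOA starts at a fold of 3.31, without a counterpart in replicate 2. The highest folds, 3.98 and 2.62, came from a shared region downstream, at the start of PPP4C, and none of the 3 shared regions of the ALDOA window touched the gene. TPI1, which interconverts the triose phosphates (12:6867420-6870948), had 6 and 2 peaks with a highest fold of 3.38 and 2.15. Its shared region at 12:6865237-6868836 ran into USP5. There the peak of replicate 1 covered both TPI1 starts, whereas the peak of replicate 2 ended at -869, counted from the first.

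GAPDH, which oxidises glyceraldehyde 3-phosphate (12:6534517-6538371), had 7 and 3 peaks. The highest fold in replicate 1, 4.30, was at a peak of 182 bp within IFFO1 (12:6544550-6544731), a neighbour downstream, and the highest in replicate 2 was 2.23. At the start, the replicate 1 peak was 4824 bp wide and had a fold of 3.42. The replicate 2 peak in the same shared region had a fold of 1.85, the lowest of all 36 peaks of replicate 2 at these genes. Peaks of replicate 1 covered 56.3% of the GAPDH span, and those of replicate 2 covered 0%.

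The last steps were mixed. ENO1, the enolase of most tissues (1:8861000-8878686, minus strand), had 6 peaks in replicate 1, among them one of 1020 bp over its start at a fold of 3.63. Its single peak in replicate 2 (fold 2.27) lay downstream and met none of them. PKM, the pyruvate kinase whose M2 isoform is typical of tumours (15:72199029-72231591, minus strand), had 14 and 6 peaks, with a highest fold of 3.54 and 2.63. It had 4 shared regions, 3 in the body and 1 at the start; in the latter the peaks of the replicates overlapped, but only that of replicate 1 (fold 2.82) covered the start site. LDHA, which reduces pyruvate to lactate (11:18394563-18408425), had 2 peaks in replicate 1 and 1 in replicate 2. At its start the folds were 3.68 and 2.08. The 2.08 was the lowest among the 10 genes' highest folds in replicate 2, although LDHA and PGK1 were the 2 genes whose start site lay under a peak of both lists.

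PGK1, which makes the first ATP of the pathway from 1,3-bisphosphoglycerate (X:78104248-78129295, plus strand), had exactly 1 peak in each list, and both were at its start. The peak of replicate 1 (X:78103792-78104290) was 499 bp wide and had a fold of 5.70 and a −log10 q of 5.70. The peak of replicate 2 (X:78103674-78104676) was 1003 bp wide and had a fold of 6.23 and a −log10 q of 15.6. Both values of fold were the highest of the 10 genes, and no other gene of the 10 came above 4.30 in replicate 1 or 2.63 in replicate 2. Rank by fold was 7 of 166548 peaks in replicate 1 and 5 of 93591 in replicate 2, and rank by −log10 q was 20 and 8.

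**Figure D2:**
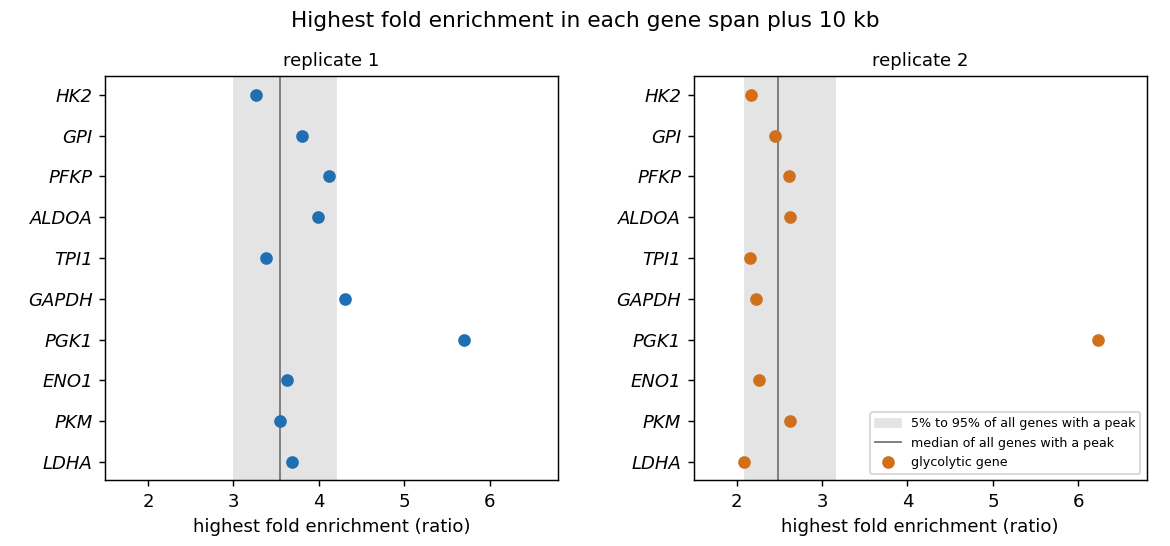
Highest fold enrichment (x axis, a ratio given by the authors' peak caller) in the span plus 10 kb of each glycolytic gene, for replicate 1 (left) and replicate 2 (right); the grey band holds 5% to 95% of all protein-coding genes with a peak and the line is their median. PGK1 stands at 5.70 and 6.23, and the other 9 genes lie between 3.27 and 4.30 and between 2.08 and 2.63.

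The peak of replicate 1 lay wholly inside that of replicate 2, which reached 118 bp further upstream and 386 bp further into the gene. It spanned 456 bases before the start and 42 after it, so that little of it was transcribed sequence, while the peak of replicate 2 spanned 574 before and 428 after. The start peaks of the other genes in replicate 1 were wider, from 845 bp in PKM to 4824 bp in GAPDH, and reached at least 137 bases past the first listed start. Since 499 of the 1003 bases are 49.8%, the PGK1 pair just missed an overlap of 50% in both directions. Of the PGK1 span, peaks covered 0.172% in replicate 1 and 1.71% in replicate 2, the lowest share of the 10 genes in replicate 1. In replicate 2, ALDOA, TPI1, GAPDH and ENO1 had 0%.

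Compared with the other 9 genes, PGK1 thus had higher enrichment in both lists and fewer peaks in replicate 1. The others had 2 to 26 peaks (median 6) in replicate 1 and 1 to 11 (median 3) in replicate 2, and the medians of all protein-coding genes were 4 and 2. In replicate 2, ENO1 and LDHA also had 1 peak each, or 0.265 and 0.295 per 10 kb of window. Per 10 kb of window, the 9 genes had a median of 2.15 and 0.850 peaks, against 0.810 and 0.400 for all genes and 0.222 in both lists for PGK1. The median of their highest folds was 3.68 in replicate 1 and 2.27 in replicate 2. For all genes with a peak it was 3.54 (5% to 95%, 3.0 to 4.2) and 2.49 (2.1 to 3.15), so the 9 genes lay slightly above the general level in replicate 1 and below it in replicate 2.

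Exactly 1 peak per list, overlapping each other, was found in the windows of 289 protein-coding genes (1.45%), PGK1 among them. The other 288 had a median fold of 3.14 in replicate 1, with a maximum of 4.26 at ZNF808, and of 2.31 in replicate 2, with a maximum of 3.59 at CCNI. Among all protein-coding genes PGK1 held rank 3 by highest fold in both lists. In replicate 2 it followed AEBP2 (12.3) and JARID2 (6.38), genes of subunits of Polycomb repressive complex 2.

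The balance between the replicates was also unlike that of most shared regions. At PGK1 the fold in replicate 2 was 1.09 times that in replicate 1, whereas over 45771 shared regions the ratio had a median of 0.696 and 5% and 95% points of 0.574 and 0.866. The 25 shared regions on X, PGK1 included, had a median ratio of 0.852, close to that 95% point, so that a high ratio was common to X regions. Replicate 2 had the higher fold in 313 shared regions (0.684%), and 85 had a ratio at or above that of PGK1. It was the only shared region on X, and the only one of the 10 glycolytic genes, with a ratio above 1. Both folds were above 4 in 1 shared region of the genome, that of PGK1. The next best lower fold of any region was 3.70.

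**Figure D3:**
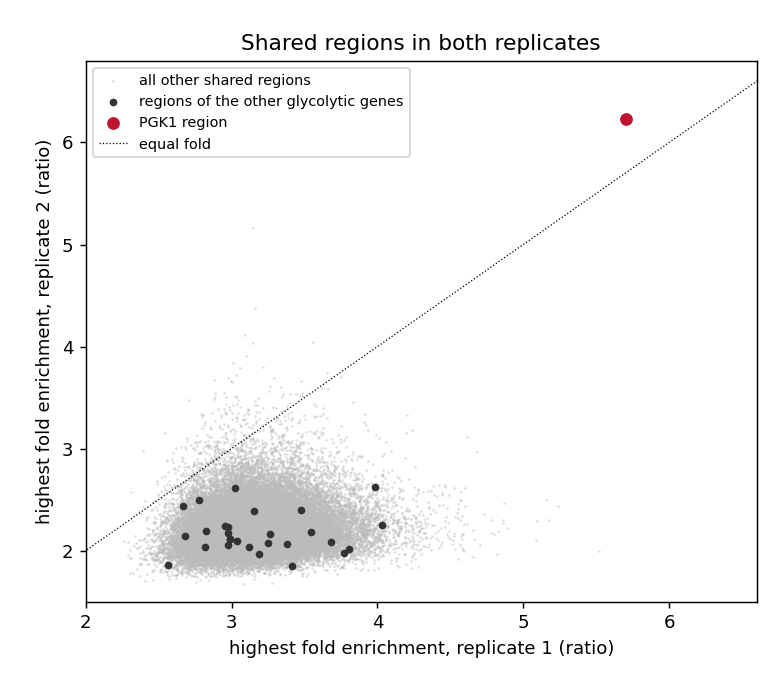
Highest fold enrichment in replicate 1 (x axis, ratio) against replicate 2 (y axis, ratio) for all 45771 shared regions (grey), the 28 regions of the other glycolytic genes (black) and the PGK1 region (red); the dotted line marks equal fold. The PGK1 region lies at 5.70 and 6.23, above the line and apart from all other points.

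The surroundings of PGK1 were nearly free of peaks. Within 100 kb on each side of its window there was none in either list, and within 1 Mb there were 2 in each, or 1 per Mb. The other 9 genes had 73.5 to 174.5 peaks per Mb within 1 Mb in replicate 1 and 39.5 to 104 in replicate 2, a range that PGK1 does not meet. Within 5 Mb there were 6 and 9 peaks near PGK1, with a highest fold of 4.30 and 2.94. No peak within 5 Mb, or anywhere else on X, exceeded that of PGK1 in either list. The highest other fold on X was 5.38 in replicate 1 (234 other peaks, median 3.15) and 3.64 in replicate 2 (484, median 2.64).

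**Figure D4:**
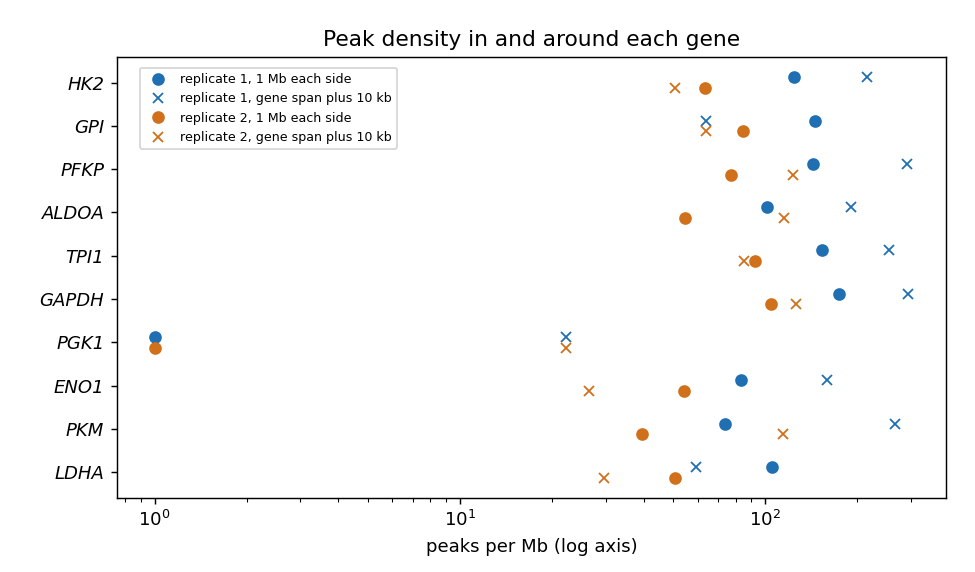
Peaks per Mb (x axis, logarithmic) in 1 Mb on each side of each glycolytic gene (dots) and in its own span plus 10 kb (crosses), for replicate 1 (blue) and replicate 2 (orange). PGK1 is at 1 peak per Mb around the gene in both lists, and at 22.2 in its own window, where it has a single peak.

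At the other genes the answer depended on the distance and the list. Within 100 kb, no peak of replicate 1 was higher than the best peak of PFKP, ALDOA, GAPDH, ENO1, PKM or LDHA itself, while HK2, GPI and TPI1 had 5, 3 and 8 higher ones. In replicate 2, PKM alone of the 9 had 0 higher peaks within 100 kb. Within 1 Mb all 9 genes had higher peaks around them in both lists. GAPDH and TPI1 lie within 1 Mb of each other, so their surroundings hold many of the same peaks and are not separate cases. In replicate 1, between 1 peak (GAPDH) and 66 peaks (HK2) within 1 Mb had a higher fold than the best peak of the gene itself, and in replicate 2 between 16 (PFKP) and 99 (ENO1). At LDHA 95% of the peaks of replicate 2 within 1 Mb were higher than its own. LDHA also had the sparsest close surroundings of the 9, with 3 peaks in each list within 100 kb, or 15 per Mb.

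**Figure D5:**
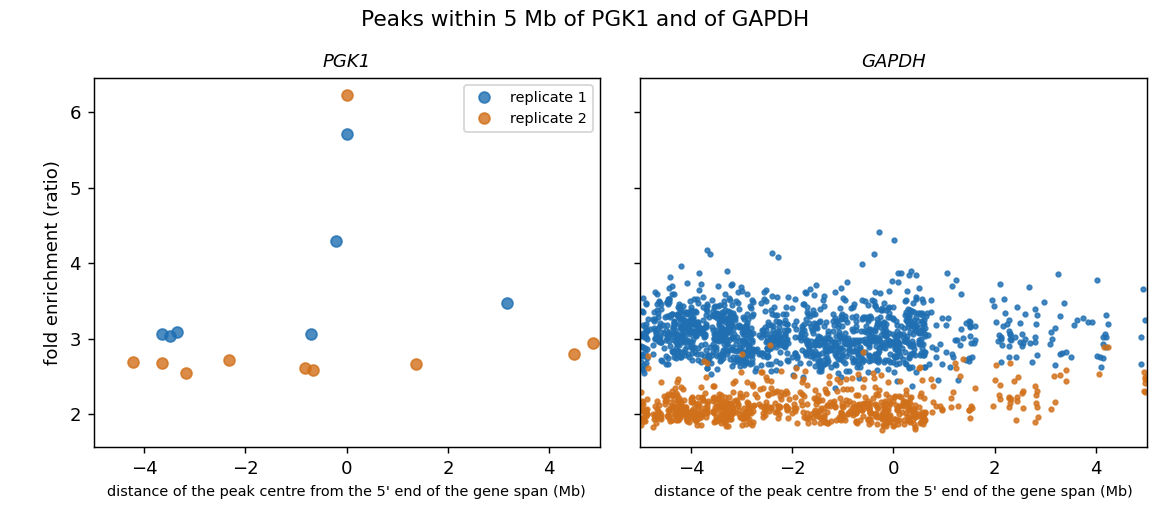
Fold enrichment (y axis, ratio) of every peak within 5 Mb of the 5' end of PGK1 (left) and GAPDH (right), by the distance of its centre in Mb, for replicate 1 (blue) and replicate 2 (orange). At PGK1 the 2 peaks at the start, 5.70 and 6.23, are the highest of a few; at GAPDH peaks are dense, with 1 of 1266 other peaks of replicate 1 above the gene's best (4.30) and 145 of 714 of replicate 2 above its best (2.23).

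The genes beside PGK1 on X carried little. On the lower side the nearest peak of replicate 1 was 209086 bases from PGK1, at an end of MAGT1, a magnesium transporter gene (X:77894977-77895162, fold 4.30), and the nearest of replicate 2 was 656784 bases away, at FGF16 (fold 2.59). The MAGT1 peak also lay within 10 kb of COX7B. On the higher side the nearest peaks were 3133812 bases away in replicate 1, in SH3BGRL (fold 3.48), and 1343075 bases in replicate 2, in no protein-coding gene (fold 2.67). The remaining 8 of the 11 other protein-coding genes within 1 Mb had no peak in either list. These include TAF9B, a transcription factor subunit gene whose span has its nearer edge 453 bases beyond the far end of PGK1. They also include ATP7A, a copper transporter gene, and PGAM4, a phosphoglycerate mutase gene and thus a further glycolytic gene.

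Scarcity of peaks held for X as a whole. A peak lay in the window of 21.9% of its 848 protein-coding genes in replicate 1 and 29.2% in replicate 2. A shared region at a gene end was found at 12 of them (1.42%), and 8 (0.943%) had exactly 1 overlapping peak per list. Of the 25 shared regions on X, that of PGK1 had the highest fold in both lists. The next in replicate 1 was that of FTSJ1, an RNA methyltransferase gene (4.15, with 2.57 in replicate 2). The share of X peaks that lay in a shared region was 10.6% in replicate 1 and 5.15% in replicate 2, below that of the whole lists. Such a share depends on how much of a chromosome the other list covers. Outside the PGK1 window, peaks covered 0.0660% of X in replicate 1 and 0.191% in replicate 2. On the chromosomes of the other glycolytic genes, outside their windows, the values were 4.39% to 13.7% and 2.17% to 5.63%. Whether the replicates agreed less on X than elsewhere was not tested.

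Other genes of sugar metabolism gave no second case like PGK1. Among 51 genes in 5 lists, 46 had a peak in replicate 1 (all genes, 83.2%), 42 in replicate 2 (74.5%) and 23 a shared region at a gene end (32.9%). The median of the highest fold was 3.47 and 2.44. Of 18 other glycolytic isoenzymes, 8 had such a region (all genes, 32.9%), led by HK3, a hexokinase of blood cells (3.28 and 2.52), PGAM2, the muscle phosphoglycerate mutase (3.49 and 2.29), and ENO2, the neuronal enolase (3.47 and 2.06). PGK2, the testis copy of PGK1 on an autosome, had 1 peak in replicate 1 (fold 2.95) and none in replicate 2. GAPDHS, the sperm form of GAPDH, had the highest single fold of these lists, 5.52 in replicate 1, with 2.18 as its highest in replicate 2. Its peak of fold 5.52 lay in a shared region. This gene was picked out after its values were seen.

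The counts in these lists are small and stand against 32.9% of all genes with a shared region at an end. Of 8 glucose and lactate transporters, 4 had one, with SLC16A8 (3.24 and 2.33), SLC2A1, the glucose carrier of most cells (3.09 and 2.39), and SLC2A4, the insulin-regulated carrier (3.44 and 2.08), in front. Of 10 regulators of the flux, 3 had one: PFKFB3 (3.26 and 2.26) and PFKFB4 (3.47 and 2.04), which set the level of fructose 2,6-bisphosphate, and PDK2 (3.21 and 2.12), an inhibitory kinase of pyruvate dehydrogenase. HIF1A had 3 peaks in replicate 1 and none in replicate 2. Gluconeogenesis had 6 of 8 genes, led by FBP2 (3.34 and 3.11), PC (3.61 and 2.1) and G6PC3 (3.43 and 2.12). The pentose phosphate pathway had 2 of 7, TKT (3.14 and 2.19) and TALDO1 (3.18 and 2.13).

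Promoters of EEF1A1 and ACTB are, like that of PGK1, in wide use in expression vectors, and their genes were looked at for that reason. The highest folds near them were 3.56 and 2.35 for EEF1A1 and 3.76 and 2.19 for ACTB, in replicates 1 and 2. EEF1A1 had a shared region at a gene end (3.19 and 1.96), and ACTB had none. Both genes were below PGK1 in both lists, but PGK1 was chosen for its high fold. How the HA tag entered the cells is not stated, and the part of vector sequence in the value at PGK1 was not tested.

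Processed copies of glycolytic genes are common in the genome, and reads from a gene and its copy can be hard to separate. Of 87 pseudogenes named after the 10 genes, 63 of them of GAPDH, 8 (9.20%) touched a peak of replicate 1, 10 (11.5%) one of replicate 2 and 3 (3.45%) a shared region. Among all 16664 pseudogenes the shares were 8.09%, 5.54% and 2.95%. Neither of the 2 PGK1 pseudogenes touched a peak in either list, and 2 are too few to set against these shares. Whether reads were misplaced between a gene and its copies was not tested.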

How the data were processed

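Enriched regions came from HA ChIP of MDA-MB-231 cells (2 ChIP samples, each with an input). The authors deposited 1 list of broad peaks per replicate, with 166628 and 93618 peaks. Bowtie2 2.2.9, MACS2 2.1.1 and hg38 are named in the submitters' processing notes, with no thresholds. Per the layout of that format, the deposited columns hold a score, a fold enrichment (ratio) and −log10 p and q values for each peak, all of them the authors' own. The score repeats the −log10 q, multiplied by 10 and cut to a whole number, in 99.99% of lines. The deposited names in the second list contain the word Merge, so whether that list rests on replicate 2 alone is not known. In broad peaks the fold is an average over the peak. The depth of the libraries is unknown, no interval is given, and inputs entered only through the caller.

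Peaks of chromosomes 1 to 22 and X were used (Python 3.11.15, pandas 2.3.3). Overlap needed 1 bp. Gene spans and start sites with strand came from RefSeq tables of GRCh38.p14. Members, lists and rules were chosen with earlier results of these lists known. All members were named; of the other lists, up to 3 genes with the best mean rank of fold at a gene end, genes of the vector promoter list, and, near PGK1, genes with a peak. Some genes that this rule or a ranking would name are not reported here. Overlap counting was tested on simulated peaks. Alternatives were other peak thresholds, overlaps, windows, merging and single replicates.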

Additional observations from a re-analysis of the deposited data

How the results depend on the processing

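With the 50% of peaks of higher fold in each list, 5 of the 10 genes had a peak in replicate 2 (all genes, 58.8%), 3 had a shared region in span plus 10 kb (PFKP, ALDOA and PGK1; all genes, 27.0%) and 1, PGK1, had one at a gene end (7.65%). With an overlap of 50% of both peaks, 5 genes had a shared region (36.0%) and 1, LDHA, had one at a gene end (9.90%); PGK1 was lost there because its peaks differ in width. Where peaks needed a −log10 q of 2 or more, 2 genes (TPI1 and PGK1) had a shared region at a gene end (7.55%). With the gene span alone, 6 genes had a peak in replicate 2 (60.4%). Of the 51 other genes of sugar metabolism, 23 had a region at a gene end; this fell to 7 under the same −log10 q limit, to 4 with the peaks of higher fold and to 4 with the overlap of 50%. The alternatives for these 51 genes and for the surroundings of PGK1 were applied after the data were seen. Of the 2 other peaks within 1 Mb of PGK1, replicate 1 held 1 under that limit, 1 with the peaks of higher fold and 1 with equal numbers of peaks; replicate 2 held 0 under that limit. With 1 replicate left out, 6 to 9 of the 10 genes had a peak at a gene end (all genes, 37.1% to 68.8%), 10 had one in span plus 10 kb in either list, and 22 to 40 of the 51 other genes had one at an end. The other values, 43 of 58, stayed within 1.5 times; they include the fold at PGK1, which the settings run for it could not alter, since they drop weaker peaks or merge close ones. No paired analysis was possible because the results come from no test and each ChIP and its input gave 1 list. Replicates number 2, the libraries' depth is unknown, and most peaks lie near the lower end of the lists.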
